A study of Drosophila melanogaster with 18 samples.

Results

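Hsp26 and Hsp27 encode small heat shock proteins of Drosophila melanogaster, and their transcripts were followed through the last syncytial and the first cellular stages of the embryo. Members were the probe sets whose array annotation gives the single symbol Hsp26, Hsp27 or Hsp83. This rule found 1 probe set for Hsp26 and 1 for Hsp27, 2 genes among the 10035 with a single symbol that were tested. Hsp83, the fly Hsp90 gene, was matched by no probe set under the rule and was not analysed here. Both probe sets passed the filter on dim values and were above background on all 18 arrays.

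The study set diploid embryos, offspring of w;histone H2-GFP parents, against haploid embryos, offspring of maternal haploid;histone H2-GFP parents. Every embryo thus came from parents with the histone reporter, by which its nuclear cycle was read under the microscope, and all flies were raised at 25C. Diploid embryos were taken at cycle 13 (15 min after the division of cycle 12), at early cycle 14 and at late cycle 14 (15 and 40 min after the division of cycle 13). Haploid embryos were taken at cycle 14 (15 min after the division of cycle 13), at early cycle 15 and at late cycle 15 (15 and 40 min after the division of cycle 14), so that each diploid stage has a haploid partner with the same ratio of nuclei to cytoplasm. Each of the 6 groups had 3 biological replicates of about 50 staged, hand-picked embryos, frozen whole in cold heptane. Haploid and diploid embryos had mothers of different genotype, and haploid partners at a matched ratio were a cycle older, so ploidy, the mother and age cannot be told apart for a transcript that the mother supplies. In whole embryos, fewer cells holding a transcript and less of it per cell cannot be told apart either.

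Small heat shock proteins carry an alpha-crystallin domain and hold unfolding proteins in a soluble state until other chaperones refold them. In the fly, nurse cells of the ovary make Hsp26, Hsp27 and Hsp83 RNA without any heat shock and pass it to the egg. Maternal RNAs are degraded in waves around the maternal-to-zygotic transition, first by factors loaded into the egg and later with the help of products of the embryo's own genome. Hsp83 RNA is a textbook example, since it is lost from the body of the embryo and kept at the posterior pole.

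Values are array intensities, brought to 1 shared distribution by quantile normalisation, with errors as SD over 3 arrays. Differences are log2 values with standard errors from limma fitted to all 18 arrays, and a probe set is called when its Benjamini-Hochberg adjusted p over 14560 tested probe sets is below 0.05. The deposited arrays were not on a common level, with trimmed means from 145.5 to 279.1 and group upper quartiles from 97.62 in haploid cycle 14 to 236.3 in diploid cycle 13. Correlations between replicates ran from 0.926 to 0.944. A control probe set at the 3' end of GAPDH averaged 965.2 in diploid cycle 13 and at most 151.6 in the other groups, and an 18S rRNA control probe set averaged 986.6 in haploid late cycle 15 and at most 395.7 elsewhere. The part of these differences in the results was not tested. The number of arrays limits the precision. Members and gene lists were chosen with earlier results of these data known. Their counts beside the shares of all probe sets or genes are therefore a description only.

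Hsp27 was among the brightest probe sets of the youngest embryos and fell in every later stage of both genotypes. In diploid cycle 13 its 3 arrays read 8070, 8742 and 8777 (mean 8529 ± 398.5), places 69 to 85 among 18769 probe sets on the deposited scale. At early cycle 14 they read 4885, 4321 and 4175 (mean 4460 ± 374.7). At late cycle 14 they read 540.6, 538.8 and 605.2 (mean 561.5 ± 37.8). The 3 diploid groups did not overlap, and late cycle 14 held 6.58% of the cycle 13 mean.

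The fall of Hsp27 from cycle 13 to early cycle 14 was 1.92-fold (log2 -0.94 ± 0.12, limma adjusted p = 1.2e-06). Over the next 25 min, within cycle 14, it was 7.94-fold (log2 -2.99 ± 0.12, adjusted p = 6.8e-15), place 45 from the lowest of 14560 differences. Over both steps it was 15.2-fold (log2 -3.93 ± 0.12, adjusted p = 2.4e-18), place 76 from the lowest.

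Hsp26 fell mostly at the other step. In diploid cycle 13 its arrays read 1673, 1517 and 1810 (mean 1666 ± 146.5). At early cycle 14 they read 394.8, 428.6 and 439.0 (mean 420.8 ± 23.1), which is 25.3% of the cycle 13 mean. At late cycle 14 they read 399.3, 405.1 and 437.4 (mean 413.9 ± 20.5). Every cycle 13 array lay above every cycle 14 array, and the early and late cycle 14 arrays overlapped.

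The fall of Hsp26 from cycle 13 to early cycle 14 was 3.95-fold (log2 -1.98 ± 0.11, limma adjusted p = 5.9e-13), place 230 from the lowest. Within cycle 14 it changed by log2 -0.02 ± 0.11 (adjusted p = 0.92) after quantile normalisation. This value depended on the scaling: under each of the 4 other scalings, which apply a factor per array in place of quantile normalisation, the difference was called, at log2 -0.38 to -0.81. On the deposited scale the means were 580.6 ± 59.9 and 387.3 ± 24.8. Relative to the median of all tested probe sets, the Hsp26 difference within cycle 14 was -0.05 after quantile normalisation and -0.39 with a factor per array, against -3.01 and -3.08 for Hsp27. A factor per array moves both genes alike, so these are 2 distinct values for each gene and not 5. In both, the Hsp26 difference was smaller than that of Hsp27.

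Both genes were called lower at early cycle 14 than at cycle 13, where 10.5% of all tested probe sets were called lower (8.62% to 13.9% under the other 4 scalings). Within cycle 14, 1 of the 2 genes was called lower against 13.3% of probe sets (15.3% to 22.2% under the other 4 scalings, where both genes were called lower). From cycle 13 to late cycle 14 both were, against 16.4% (18.9% to 23.1%).

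**Figure D1:**
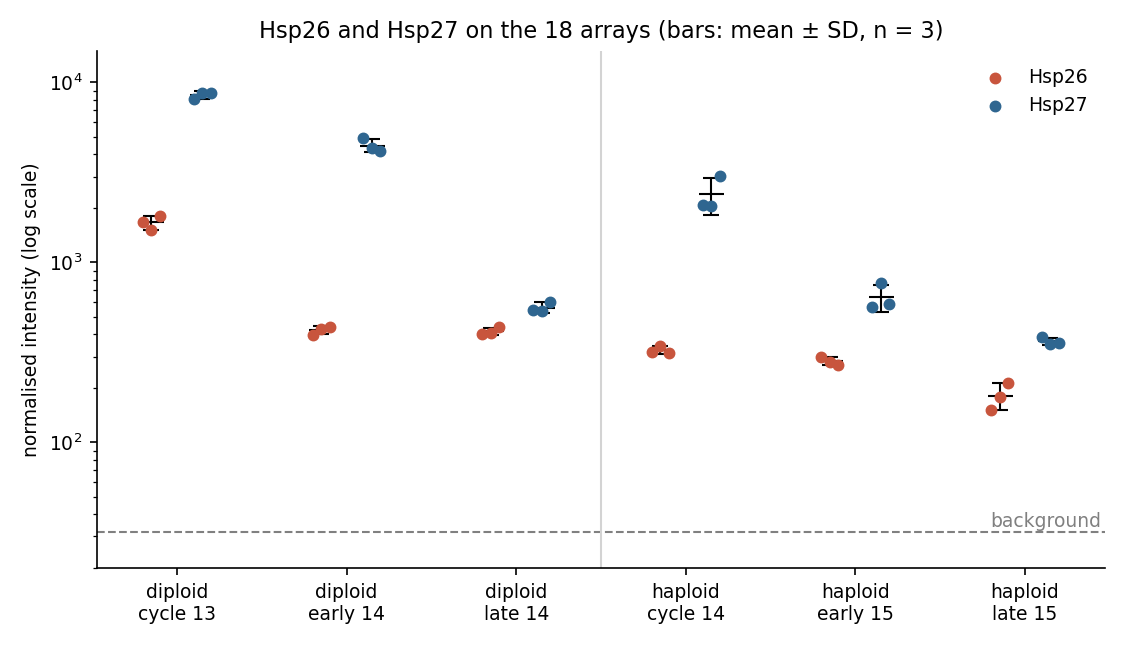
Normalised intensity (log scale) of Hsp26 and Hsp27 on each of the 18 arrays, by group, with mean and SD bars over 3 arrays and the background of 31.95 as a dashed line. Hsp27 fell from 8529 to 561.5 across the diploid stages, most of it within cycle 14, while Hsp26 fell from 1666 to 420.8 before early cycle 14.

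Haploid embryos began at lower levels of both transcripts. In haploid cycle 14 the Hsp27 arrays read 2094, 2061 and 3040 (mean 2398 ± 555.9). In haploid early cycle 15 they read 566.8, 767.1 and 584.7 (mean 639.5 ± 110.8). In haploid late cycle 15 they read 383.7, 352.3 and 356.8 (mean 364.3 ± 16.96). These groups did not overlap either, and the third array of haploid cycle 14 stood above its 2 replicates. Hsp27 fell 3.72-fold at the first haploid step (log2 -1.90 ± 0.12, limma adjusted p = 3.3e-11) and 1.74-fold at the second (log2 -0.80 ± 0.12, adjusted p = 6.7e-06). Over both haploid steps it fell 6.48-fold (log2 -2.70 ± 0.12, adjusted p = 2.5e-15).

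For Hsp26 the haploid cycle 14 arrays read 317.7, 345.0 and 315.6 (mean 326.1 ± 16.4). In haploid early cycle 15 they read 298.9, 279.5 and 270.1 (mean 282.8 ± 14.7). In haploid late cycle 15 they read 151.7, 179.6 and 213.6 (mean 181.6 ± 31.0). The arrays of the 3 haploid groups did not overlap, with each later group below the earlier one. The first haploid step did not pass the test (log2 -0.21 ± 0.11, limma adjusted p = 0.21). It passed at log2 -0.57 with median centring and at -0.36 with centring on ribosomal protein probe sets, and its sign turned to 0.13 with centring on the spiked poly-A controls. At the second haploid step Hsp26 fell 1.57-fold (log2 -0.65 ± 0.11, adjusted p = 2.6e-05), and over both steps 1.81-fold (log2 -0.86 ± 0.11, adjusted p = 2.9e-07).

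At the first haploid step 1 of the 2 genes was called lower, against 9.87% of probe sets (2.01% to 13.1% under the other scalings, with both genes called lower under 2 of them). At the second step both were, against 14.8% (12.3% to 27.5%). Over both haploid steps both were, against 18.2% (11.9% to 20.6%).

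At each matched ratio of nuclei to cytoplasm, both transcripts were lower in the haploid embryos, and no array of a haploid group reached its diploid partner. At the first matched stage, haploid cycle 14 against diploid cycle 13, Hsp26 was 5.10-fold lower (log2 -2.35 ± 0.11, limma adjusted p = 2.2e-14). Hsp27 was 3.61-fold lower (log2 -1.85 ± 0.12, adjusted p = 9.5e-12). Both genes were called lower there, where 15.0% of probe sets were (20.1% to 30.3% under the other scalings).

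At the second matched stage, early interphase, Hsp27 was 7.02-fold lower in haploids (log2 -2.81 ± 0.12, limma adjusted p = 3.6e-14), place 48 from the lowest. Hsp26 was 1.49-fold lower (log2 -0.57 ± 0.11, adjusted p = 0.00019), or log2 -1.33 on the deposited scale. Both were called lower, against 12.3% of probe sets (12.6% to 23.3%). At the third stage, late interphase, the order of the genes turned: Hsp26 was 2.30-fold lower (log2 -1.20 ± 0.11, adjusted p = 5.5e-09) and Hsp27 1.54-fold lower (log2 -0.62 ± 0.12, adjusted p = 0.00029). Both were called lower, against 11.6% of probe sets (9.46% to 12.4%).

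Haploid and diploid embryos were also sampled in the same cycle and at the same minutes, 15 min into cycle 14. Hsp27 was 1.89-fold lower in the haploids (log2 -0.92 ± 0.12, limma adjusted p = 3.9e-06), and Hsp26 was 1.29-fold lower (log2 -0.37 ± 0.11, adjusted p = 0.014). The arrays did not overlap for either gene. Without replicate 2 of diploid early cycle 14 the Hsp26 difference missed the threshold (log2 -0.35, adjusted p = 0.055), as it did without replicate 3 (log2 -0.34, adjusted p = 0.062). Both genes were called lower, against 10.4% of probe sets. This background rested on the scaling, at 11.9% to 47.0% under the others, and the median of all tested probe sets moved between 0.03 and -0.74. Relative to that median, Hsp27 was at -0.94 after quantile normalisation and -0.76 with a factor per array, and Hsp26 at -0.39 and -0.50.

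Haploid early cycle 15 and diploid late cycle 14 embryos are of similar age. Here Hsp27 did not pass the test: 639.5 ± 110.8 against 561.5 ± 37.8 (log2 0.18 ± 0.12, limma adjusted p = 0.38), with overlapping arrays, and it was called under none of the 5 scalings. Hsp26 was 1.46-fold lower in the haploids (log2 -0.55 ± 0.11, adjusted p = 0.00048), with no overlap. With centring on the poly-A controls it was at log2 -0.27 (adjusted p = 0.45). So 1 of the 2 genes was called lower, against 8.64% of probe sets (2.40% to 9.73% under the other scalings).

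Set in order of level, Hsp27 ran from diploid cycle 13 through diploid early cycle 14, haploid cycle 14, haploid early cycle 15 and diploid late cycle 14 to haploid late cycle 15. Of these 5 neighbouring pairs, only haploid early cycle 15 and diploid late cycle 14 did not differ beyond their spread. The order of Hsp26 ran through the 3 diploid stages and then the 3 haploid stages. Its diploid early and late cycle 14 levels did not differ beyond their spread after quantile normalisation, and haploid cycle 14 and haploid early cycle 15 did not pass the test although their arrays did not overlap. Diploid late cycle 14 stood above haploid cycle 14 by log2 0.34 ± 0.11 (limma adjusted p = 0.015).

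The steps differed between haploid and diploid embryos, in opposite directions for the genes. Haploid steps started at cycle 14 and diploid steps at cycle 13, so ploidy cannot be told apart from stage, age or the mother. Hsp26 began at 326.1 in haploids, already below its 420.8 in diploid early cycle 14. At the first step Hsp26 fell by less in haploids than in diploids (difference of log2 changes 1.78 ± 0.15, limma adjusted p = 2.2e-08), and Hsp27 by more (-0.96 ± 0.17, adjusted p = 0.00041). At the second step Hsp27 fell by less in haploids (2.19 ± 0.17, adjusted p = 8.1e-09) and Hsp26 by more (-0.63 ± 0.15, adjusted p = 0.0048). Both genes were called at each step, where 8.96% of probe sets were called in either direction at the first and 14.5% at the second. The Hsp26 difference at the second step was lost under each of the other 4 scalings (log2 -0.12 to -0.41). The Hsp27 difference at the first step was lost with centring on the poly-A controls (log2 -0.60, adjusted p = 0.29). The Hsp26 difference at the first step and the Hsp27 difference at the second held under all 5.

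Scaling moved the median of all tested probe sets, at the first diploid step from 0.10 to between -0.02 and 0.28 and at the first haploid step from 0.03 to between -0.10 and 0.60. Differences relative to that median take 1 value for all scalings by a factor per array. At the first diploid step Hsp26 was at -2.08 relative to it after quantile normalisation and at -1.83 with a factor per array, and Hsp27 at -1.04 and -0.95. At the first haploid step Hsp27 was at -1.93 and -2.03, and Hsp26 at -0.23 and -0.47. At the 3 matched stages Hsp26 was at -2.44, -0.62 and -1.22 after quantile normalisation and at -2.31, -1.01 and -1.30 with a factor per array. Hsp27 was at -1.94, -2.86 and -0.64 and at -1.69, -2.84 and -0.85.

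**Figure D2:**
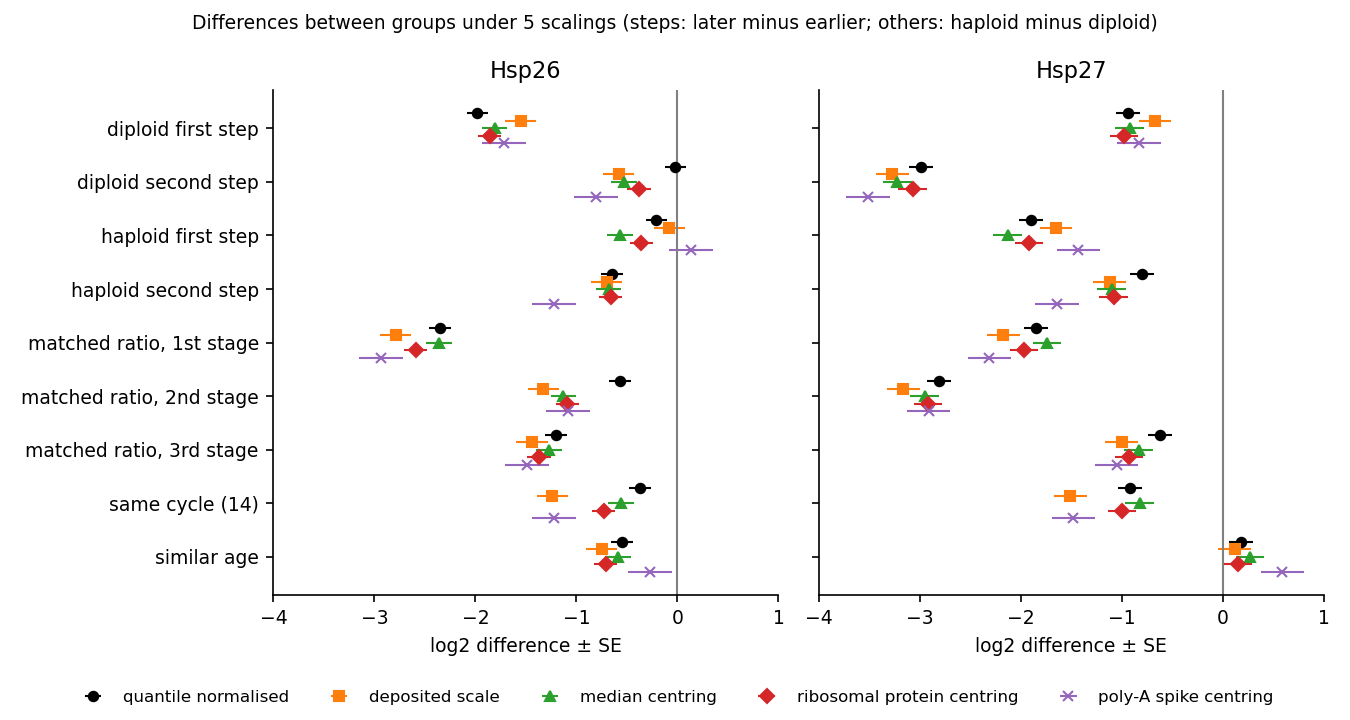
Log2 differences (horizontal axis, with standard errors) of Hsp26 and Hsp27 in 9 comparisons under 5 scalings of the arrays; steps are later minus earlier stage and the other comparisons haploid minus diploid. The values of Hsp27 keep their side of 0 throughout, while those of Hsp26 at the second diploid step run from -0.81 to -0.02 and at the first haploid step from -0.57 to 0.13.

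The ratio of the Hsp27 and Hsp26 probe sets within an array is free of any factor that multiplies a whole array, and it was added after the values were seen. On the deposited scale its log2 averaged 2.29 ± 0.16 in diploid cycle 13, 3.17 ± 0.21 at early cycle 14 and 0.48 ± 0.01 at late cycle 14. In haploids it averaged 2.91 ± 0.31, 1.35 ± 0.30 and 0.93 ± 0.24 from the first stage to the last. In diploids the ratio first rose and then dropped below its starting value, and in haploids it was highest at the first stage.

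The diploid rise was 0.88 ± 0.15 and the diploid drop -2.69 ± 0.12, each without overlap. Each had an exact two-sided permutation p = 0.1, the smallest that 3 arrays against 3 allow. Errors of these ratio differences are standard errors from the spread of the 3 arrays in each of the 2 groups, not from limma. The first haploid step was -1.56 ± 0.25 (exact permutation p = 0.1) and the second -0.42 ± 0.22 (exact permutation p = 0.2). Leaving out each array in turn kept the diploid rise between 0.76 and 0.95 and the diploid drop between -2.76 and -2.57. At similar age, haploid early cycle 15 stood above diploid late cycle 14 by 0.86 ± 0.18 (exact permutation p = 0.1). The level of the ratio depends on the 2 probe sets and says nothing of which transcript was more abundant.

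**Figure D3:**
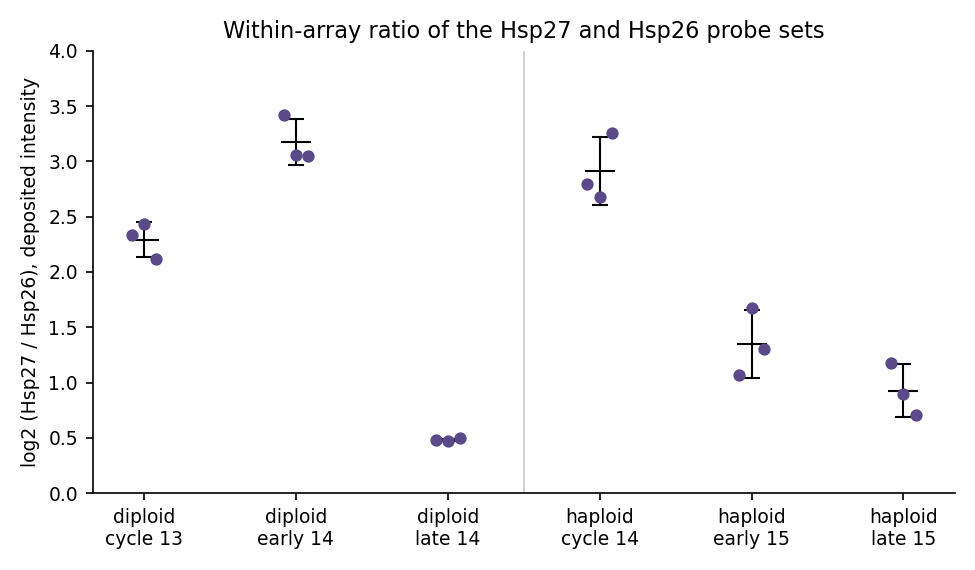
Log2 ratio of the deposited Hsp27 and Hsp26 intensities within each of the 18 arrays, by group, with mean and SD bars over 3 arrays. The ratio rose from 2.29 to 3.17 and dropped to 0.48 in diploids, and went from 2.91 to 0.93 in haploids.

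The courses of both genes were alike only in part. Over the 18 arrays, which share their 6 groups and the normalisation, the log2 values of Hsp26 and Hsp27 correlated at r = 0.79. Among 6786 candidate genes, Hsp27 held place 464 by likeness to Hsp26, and Hsp26 held place 1016 by likeness to Hsp27.

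The genes most like Hsp26 by Pearson r over the 18 arrays were Uch (0.973), BicC (0.967), GstD1 (0.960), alphaTub67C (0.958) and endos (0.955). Uch encodes a ubiquitin hydrolase, BicC an RNA-binding protein of oogenesis and GstD1 a glutathione transferase. The alpha-tubulin made for the egg is encoded by alphaTub67C, and endos encodes a small inhibitor of the phosphatase PP2A. Their means went from 774.1 in diploid cycle 13 to 193.2 and 135.8 at early and late cycle 14 for alphaTub67C. For endos they went from 771.0 to 338.1 and 352.4. In each of the 5, as in Hsp26, the difference of means at the first diploid step exceeded that at the second. The differences were log2 -1.18 to -1.95 against -0.51 to 0.06, on the quantile scale. The 5 were picked by likeness over these same arrays, so this follows from the choice.

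The genes most like Hsp27 were Pcif1 (r = 0.986), APC7 (0.985), stai (0.985), CG5823 (0.984) and CAH3 (0.984). APC7 encodes a subunit of the anaphase-promoting complex, stai the microtubule regulator stathmin and CAH3 a carbonic anhydrase. Pcif1 went from 1029 in diploid cycle 13 to 698.4 and 177.0, and stai from 2394 to 638.7 and 57.6. In each of the 5 the second diploid step was the larger, at log2 -1.35 to -3.47 against -0.56 to -1.93 at the first. These likenesses are a description of 18 arrays in 6 groups. Here too the shared course follows from the choice of the genes. On the deposited scale the places by likeness to Hsp27 were 11 for Pcif1, 204 for APC7, 5 for stai, 2 for CG5823 and 9 for CAH3. By likeness to Hsp26 they were 1 for Uch, 2 for BicC, 10 for GstD1, 13 for alphaTub67C and 17 for endos.

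**Figure D4:**
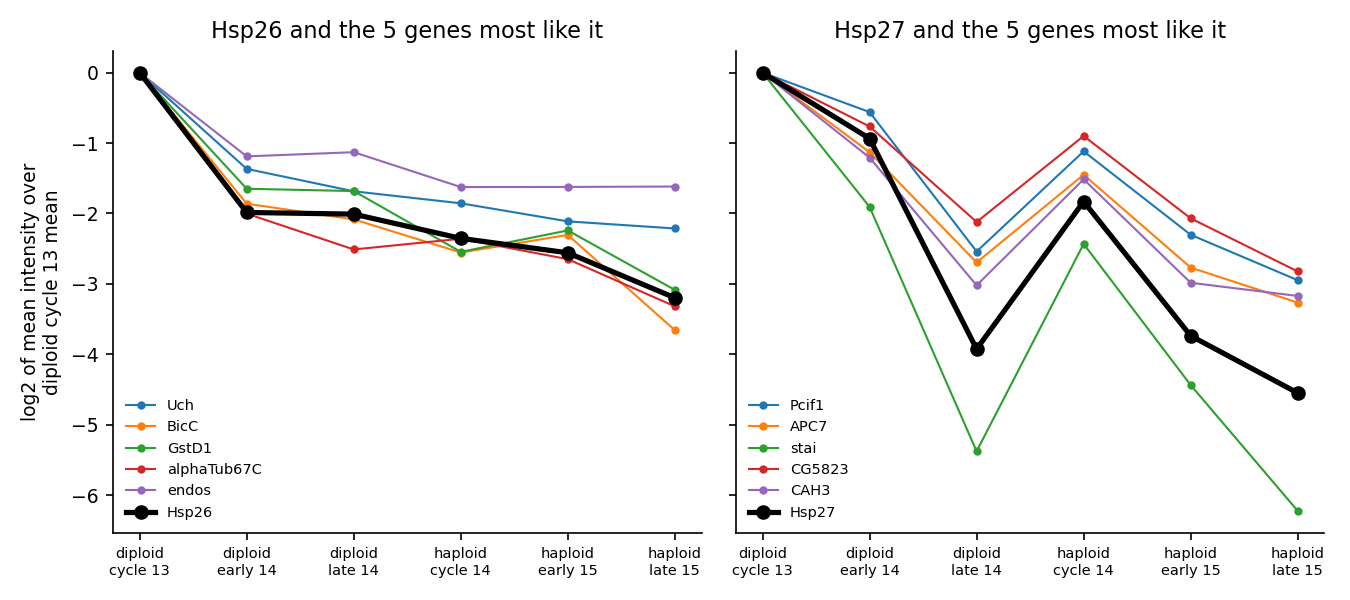
Log2 of the mean normalised intensity relative to diploid cycle 13, by group, for Hsp26 (left, black) and Hsp27 (right, black) and the 5 genes most like each. The genes were picked for a like course. Those beside Hsp26 drop mainly before early cycle 14, and those beside Hsp27 drop further between early and late cycle 14.

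Of the small heat shock genes that could be measured, only Hsp26 and Hsp27 were called at either diploid step. Of 12 listed, 6 had a probe set with a single symbol and all 6 were tested, with 2 lower and 0 higher at the first diploid step (median log2 -0.33). The lethal(2)essential for life gene, l(2)efl, was above background on all 18 arrays with group means from 37.6 to 53.4, and was called at neither diploid step nor haploid step. CG4461 was above background on 2 arrays, CG7409 on 1 and CG13133 on none, so a fall of these could not be seen. The background was 31.95, and l(2)efl too lay close to it. CG13133 was called higher from diploid cycle 13 to late cycle 14 (log2 1.83 ± 0.63, limma adjusted p = 0.022, called under 4 of 5 scalings). Genes without a single-symbol probe set could not be judged. Over all 10035 genes, 19.8% were higher and 13.1% lower at the first diploid step, with a median of 0.10.

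Other chaperone genes were measured too, among them some for proteins of the mitochondrion and the endoplasmic reticulum. Of 17 listed genes of the Hsp70, Hsp110 and Hsp60 families, 11 had a probe set and 9 were tested. At the first diploid step 4 were lower and 0 higher (median log2 -0.39, 2 to 4 lower under the other scalings). Among all genes 13.1% were lower and 19.8% higher there after quantile normalisation. Hsc70-5, the mitochondrial Hsp70, went from 816.5 to 201.6 (log2 -2.02 ± 0.25, limma adjusted p = 9.0e-07), nearly the log2 change of Hsp26. Hsp60A, the mitochondrial chaperonin, went from 513.2 to 231.9 (log2 -1.14 ± 0.19) and on to 106.6 at late cycle 14 (log2 -1.14 ± 0.19). Hsc70-3, the chaperone of the endoplasmic reticulum, went from 5405 to 3554 (log2 -0.60 ± 0.07), and Hsp110 from 912.7 to 640.1 (log2 -0.51 ± 0.09), both called under 3 of 5 scalings.

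Hsc70-4, the main Hsp70 relative of unstressed cells, was not called at the first diploid step (log2 0.05 ± 0.05, limma adjusted p = 0.55, from -0.04 to 0.27 over the 5 scalings), and its group means lay between 9144 and 11274. Hsp68, an Hsp70 gene switched on by heat, was above background on 16 arrays, with means from 36.9 in diploid cycle 13 to 106.1 in haploid early cycle 15. Hsc70-1 and Hsp60D were above background on 1 array each, and Hsc70-2, Hsp60B and Hsp60C on none. At the second diploid step 5 of the 9 were lower and 0 higher (4 lower under the other scalings), against 16.2% lower and 17.4% higher among all genes.

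Of 20 listed genes for the heat shock factor and co-chaperones, 14 had a probe set and were tested. At the first diploid step 7 were lower and 0 higher (median log2 -0.37, 4 to 8 lower and 0 to 3 higher under the other scalings). Among all genes 13.1% were lower and 19.8% higher after quantile normalisation. Stip1, which joins Hsp70 to Hsp90, went from 2367 to 644.4 and stayed at 639.4 (log2 -1.88 ± 0.10 and -0.01 ± 0.10). In haploids, where Hsp26 fell at the second step, Stip1 went from 447.8 to 667.6 (log2 0.58 ± 0.10, down to -0.08 under another scaling). As with Hsp26, its second diploid step was called under other scalings, 3 of the 5 in all, down to log2 -0.68. DnaJ-1, an Hsp40, went from 2671 to 961.2 and 659.5 (log2 -1.49 ± 0.11 and -0.53 ± 0.11).

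The gene of the heat shock factor itself, Hsf, went from 1714 to 1050 (log2 -0.71 ± 0.10), the Hsp90 partner p23 from 3983 to 2376 (log2 -0.75 ± 0.09) and the mitochondrial Hsp90 Trap1 from 193.8 to 120.5 (log2 -0.69 ± 0.14). Droj2, with a J domain, went from 5814 to 4431 (log2 -0.39 ± 0.09), called under 2 of 5 scalings, while Hsf and p23 were called under 3 and Trap1 under 5. The last of the 7, unc-45, a myosin chaperone, was below background on all 18 arrays. Cdc37, a kinase partner of Hsp90, had group means from 1222 to 1603, STUB1, a ubiquitin ligase, from 2368 to 2791, and Sgt1 from 886.5 to 1408. Gp93, the Hsp90 of the endoplasmic reticulum, ran from 1147 to 1834, CG1416 from 2581 to 3531 and the immunophilin Fkbp59 from 91.7 to 176.9. None of these 6 was called at the first diploid step after quantile normalisation, while Fkbp59 was called lower under 3 other scalings and Cdc37, Sgt1 and STUB1 higher under 1. The gene stv encodes a partner of Hsp70 and was below background on all 18 arrays.

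At the first matched stage, 6 of the 9 Hsp70 and Hsp60 family genes were lower and 0 higher in haploids, and 8 of the 14 co-chaperone genes were lower and 2 higher (4 to 6 and 8 to 10 lower under the other scalings), against 18.2% lower and 24.2% higher among all genes. Under the other scalings 20.1% to 30.3% of probe sets were lower. Each count of lower genes holds a gene below background on all arrays of both groups, Hsc70-1 (19.3 against 7.46) and unc-45 (24.2 against 4.46). Stip1 was lower by log2 -2.10 ± 0.10 (limma adjusted p = 3.6e-14) and Hsc70-5 by log2 -2.38 ± 0.25 (adjusted p = 4.0e-08), close to the -2.35 of Hsp26.

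**Figure D5:**
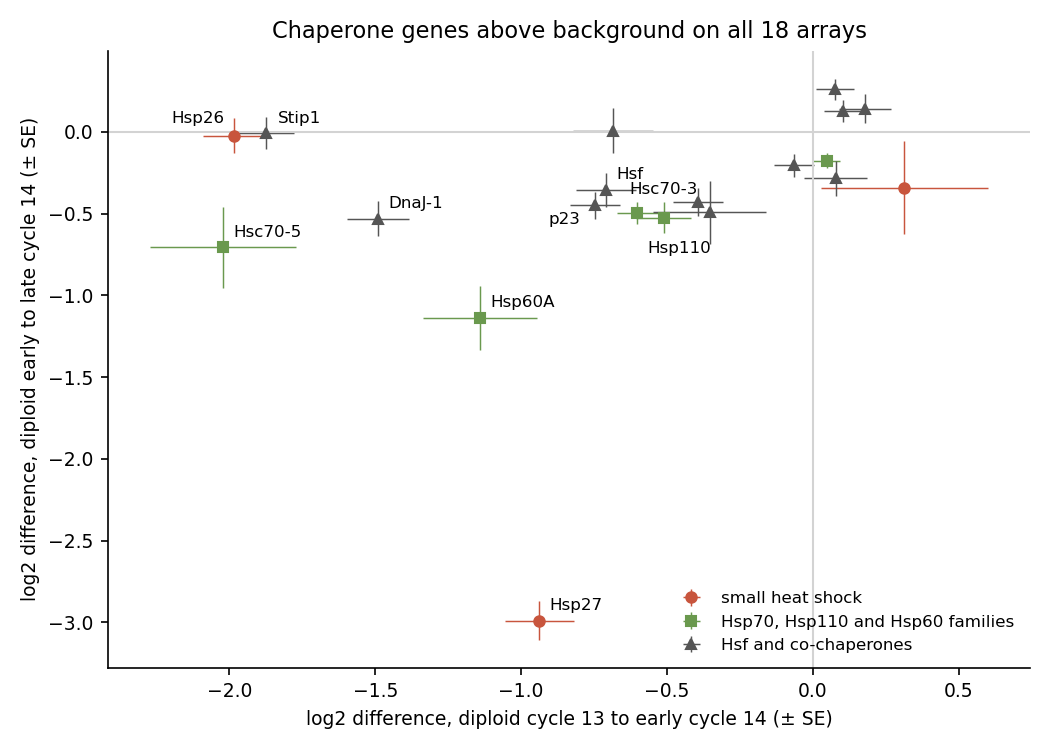
Log2 difference of each chaperone gene above background on all 18 arrays at the first diploid step (horizontal axis) and the second (vertical axis), with standard errors, after quantile normalisation. Hsp27 lies alone at the bottom at -2.99, and Hsp26 lies beside Stip1 at -1.98 and -1.88 on the horizontal axis.

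Several other maternal transcripts fell over the same stages. Of 24 tested genes listed as maternal and cleared after egg laying, 10 were lower and 2 higher at the first diploid step (median log2 -0.19). Under the other scalings the median ran from -0.23 to 0.08, with 8 to 12 lower and 0 to 6 higher. At the second step 15 were lower and 0 higher (median -0.97, from -1.49 to -1.05 under the other scalings). From cycle 13 to late cycle 14, 17 were lower and 4 higher (17 to 18 and 0 to 3 under the other scalings), against 19.9% and 27.6% of all genes. Not every listed gene fell. Among all genes 13.1% were lower and 19.8% higher at the first step, and 16.2% and 17.4% at the second. The posterior determinant osk went from 3776 to 890.4 (log2 -2.12 ± 0.19) and to 154.3. The egg activation gene gnu fell by log2 -1.70 ± 0.12 and the germ line RNA-binding protein gene orb by log2 -2.70 ± 0.27 at the first step, and the dorsal determinant gene dl went from 225.3 to 43.3 (log2 -2.36 ± 0.69). Of 17 tested genes for clearance factors, 6 were lower and 4 higher at the first diploid step (median log2 -0.11, from -0.13 to 0.18 under the other scalings) and 11 lower and 1 higher at the second (median -0.40, from -1.03 to -0.59 with 13 to 14 lower and 0 higher under the other scalings), beside the same shares of all genes. Among them, brat, a translational repressor, fell by log2 -2.39 ± 0.17 and twin, the CCR4 deadenylase, by log2 -1.05 ± 0.10. The list of clearance factors shares gnu and orb, among others, with the 24 genes above. Those 24 share gcl and CycB, among others, with the germ plasm genes below, so the counts are not independent.

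Pole cells keep some maternal RNAs longer than the rest of the embryo. Most germ plasm genes tested fell over the diploid stages, and the calls of higher genes there rested on the scaling. Of 8 tested, 5 were lower and 0 higher at the first diploid step (3 to 6 lower under the other scalings), against 13.1% lower and 19.8% higher among all genes. Among them were ovo (log2 -2.27 ± 0.17), piwi (log2 -0.89 ± 0.12) and gcl (log2 -0.76 ± 0.10). From cycle 13 to late cycle 14, 5 were lower and 2 higher, against 19.9% lower and 27.6% higher among all genes. The 2 higher were vas, from 47.8 to 78.2 (log2 0.70 ± 0.21), and aub, from 699.9 to 856.0 (log2 0.29 ± 0.08). Both were called under quantile normalisation only, with a negative value under at least 1 other scaling. At the first matched stage 6 were lower and 2 higher in haploids (5 to 6 lower and 0 to 1 higher under the other scalings). Among all genes 18.2% were lower and 24.2% higher there after quantile normalisation. The sum over the 8 genes ran from 21569 to 22168 in diploid cycle 13, from 13792 to 14809 at early cycle 14 and from 7051 to 7339 at late cycle 14. CycB, the cyclin B gene, gave 11321 of it in diploid cycle 13, 9701 at early and 4956 at late cycle 14. In haploids the sum ran from 12113 to 13930, then from 7903 to 8242, then from 5377 to 5579. None of the 8 was below background on all arrays of a group, and their part in the results was not tested.

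Markers of the mother's tissues, yolk protein, chorion and vitelline membrane genes, were near background. None of 12 measured was above background on all 18 arrays, and their sum was 130.8 to 201.8 in diploid cycle 13, where 11 of the 12 were below background on all 3 arrays. Across groups it reached 452.4, in haploid early cycle 15, where both heat shock transcripts were low. Of 12 genes listed as switched on by heat, 3 were measured: DnaJ-1, Hsp68 and stv. Their sum was 2656 to 2819 in diploid cycle 13 and 906.5 to 1237 at early cycle 14, nearly all of it DnaJ-1. In diploid cycle 13, where Hsp26 and Hsp27 were highest, DnaJ-1 was also at its highest mean, 2671, and Hsp68 was near background, at 36.9 with 2 of 3 arrays above it. The part of these genes in the results was not tested.

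Hsp26 and Hsp27 lie near each other on chromosome arm 3L in a cluster of small heat shock genes. In the RefSeq annotation 3 genes, Hsp67Ba, asRNA:CR43481 and Hsp23, lie between them, and the model of CR43483 overlaps an end of Hsp27, so that the signal of either could not be told apart by position alone. Among the 23 other genes from 10 places before to 10 after, 13 were tested. From diploid cycle 13 to late cycle 14, 3 of these were lower (eIF4E1, Klp67A and CG4080) and 4 higher, with a median of 0.17, where 19.9% of all genes were lower and 27.6% higher. The translation initiation factor gene eIF4E1 went from 4599 to 997.0 (log2 -2.20 ± 0.09, limma adjusted p = 2.3e-16), Klp67A, a kinesin gene, fell by log2 -0.83 ± 0.09 and Cpsf5, an RNA cleavage factor gene, rose by log2 2.38 ± 0.15. CG4452 was called higher under all 5 scalings, and mRRF1 and CG4022 under the quantile normalisation only, with a negative log2 value under at least 1 other. Fdx1 (log2 -1.30 to -0.20 over the 5 scalings) and Atat (-1.39 to -0.39) were called lower under the 4 other scalings and not after quantile normalisation. CG4461, next to Hsp26, was near background as given above.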

How the data were processed

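RNA of 18 pools of embryos was hybridised to Affymetrix arrays of 18952 probe sets. The authors deposited unlogged MAS5 intensities, per the submitters' processing notes, with version and scaling target not given in the sources used here. Members and gene lists were chosen with earlier results of these data known. Probe sets were named from the platform annotation, where 13647 have 1 symbol, 402 have several and 4720 none, and the last 2 kinds were not named. Each gene was represented by its brightest probe set.

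Intensities below 0.1 were raised to it (1 value), arrays were quantile normalised in R 4.3.3, and log2 values were fitted with limma 3.58.1 (6 group means, intensity trend), tested on simulated data. Controls left out, 18769 probe sets remained, and the 14560 that reached 12.0 (percentile 40 of the table) on 3 or more arrays entered the fit. Background is 31.95, the 95th percentile of 20 negative controls. Nothing beyond the labels' word says replicates came from separate collections, so p-values may measure technical spread. Same-numbered samples did not deviate together (correlations -0.023 to 0.033).

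The text names every measured member of the 3 chaperone lists, of other lists up to 4 called, non-overlapping genes with the largest first diploid step, and the 5 genes most like each member among genes with a group mean of at least 28.95. Other scalings were the deposited scale and centring on the median, on 47 ribosomal protein or on 24 spiked poly-A control probe sets. Further alternatives were no filter, a filter at 28.95, 16 added before log2, no intensity trend, the replicate block and leaving out each array.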

Additional observations from a re-analysis of the deposited data

Results flagged for a closer look

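Haploid and diploid steps, which cover different cycles, differed by limma test in 4 results, given as haploid minus diploid log2 change with quantile normalisation. For Hsp26 it was 1.78 at the first step and -0.63 at the second. For Hsp27 it was -0.96 at the first step and 2.19 at the second. Of these, 1.78 for Hsp26 and 2.19 for Hsp27 passed the limma test under all 5 scalings.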

How the results depend on the processing

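Of 702 values recomputed for the 26 differences of Hsp26 and Hsp27 under other settings, 686 kept their direction and side of the threshold. Many of these settings could not move a difference, since they kept the same log2 values or left out an array of another group. The count is therefore no measure of robustness, and the changes under other scalings follow. Hsp26 within diploid cycle 14 became called on the deposited scale (log2 -0.58), with median centring (-0.53), ribosomal protein centring (-0.38) and poly-A centring (-0.81), and ran from -0.07 to 0.01 when each array was left out, turning sign without replicate 3 of diploid early cycle 14. The haploid against diploid difference of Hsp26 at the second step was lost in the same 4 scalings (-0.12, -0.15, -0.29 and -0.41). Hsp26 at the first haploid step became called with median (-0.57) and ribosomal protein centring (-0.36) and turned to 0.13 with poly-A centring. Poly-A centring also ended the calls of Hsp26 at similar age (-0.27) and of Hsp27 for the difference at the first step (-0.60). Leaving out arrays moved Hsp26 in the same cycle between -0.41 and -0.34. The causes were not tested.

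Called probe sets numbered 3977 at the first diploid step, and 2602, 2620 and 1699 with median, ribosomal protein and poly-A centring. In the same cycle they went from 2987 to 6914 on the deposited scale and 5283 with poly-A centring. The difference at the first step went from 1304 to 750 on the deposited scale. Poly-A centring took the second matched stage from 3838 to 2098, the third from 3058 to 1563 and the difference at the second step from 2109 to 582. Over scalings the share of calls that were higher ran from 22.5% to 65.9% at the first diploid step (61.4% with quantile normalisation), from 12.0% to 32.7% within cycle 14 (52.6%), from 3.83% to 34.5% at the first matched stage (57.9%) and from 0.871% to 22.2% in the same cycle (49.5%). It ran from 17.8% to 40.4% over the whole diploid course (59.3%), from 28% to 92.9% at the first haploid step (51.4%), from 14.3% to 48.3% at the second (48.8%) and from 40.1% to 68.0% over both (51.8%). At the second matched stage and the third it ran from 6.47% to 17.9% (53.3%) and from 11.8% to 37.2% (44.6%), at similar age from 27% to 80.4% (50.0%), and for the differences between steps from 53.0% to 99.0% (44.0%) and from 68.3% to 87.2% (45.1%).

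With the replicate number as a block, no call of either gene changed (first diploid step of Hsp26 -1.98, of Hsp27 -0.94), and 4003 probe sets were called at that step.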
